A study of Bos taurus with 12 samples.

Results

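ATP synthase (complex V) is the enzyme of the inner mitochondrial membrane that makes ATP from the proton gradient built by the respiratory chain. Protons crossing the membrane turn a ring of c subunits, the ring turns the central stalk, and the stalk drives the catalytic head (F1), while a peripheral stalk keeps the head from turning along. Milk synthesis by the mammary epithelium draws heavily on ATP, which makes the genes of this enzyme a point of interest in cows whose feed is cut during lactation. The 10 genes described here encode the α and β subunits of the head (ATP5F1A, ATP5F1B), the γ, δ and ε subunits of the central stalk (ATP5F1C, ATP5F1D, ATP5F1E), the c subunit (ATP5MC1, ATP5MC2, ATP5MC3) and, outside both F1 and the c-ring, the OSCP and b subunits of the peripheral stalk (ATP5PO, ATP5PB). They were chosen by name, as all probes whose identifier maps to one of these symbols. All 10 were on the array, of 12787 genes that received a symbol, with 30 of its 43653 probes.

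The RNA came from mammary gland biopsies of lactating Holstein cows. Each of 6 cows gave a sample on day 0, with feed ad libitum (CONT, n = 6), and again on day 6 of a restriction to 50% of the net energy requirement (REST, n = 6), so that period and diet changed together and each cow is its own control. The samples were hybridised singly to 12 one-colour Agilent arrays, 4 to a slide, and both arrays of a cow shared a slide (slide 1 held cows 1 and 2, slide 2 cows 3 and 4, slide 3 cows 5 and 6). The series text counts 5 cows where the labels name 6, and the methods mention a Holstein cow excluded for mastitis that could not be matched to a label, so the counts and changes of the ATP synthase genes were also computed without each cow.

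Signals below are log2 processed intensities minus the 75th percentile of the same array, and a change is REST minus CONT on that log2 scale. A probe was tested if it was well above background on every array of at least 1 group, which held for 19406 probes of 7932 genes, and for all 30 probes of the 10 genes on all 12 arrays. A change passed when its limma p-value, with cow as a block and Benjamini-Hochberg adjustment across the 19406 tested probes, was under 0.1. Each gene is given by its brightest tested probe, and levels of different genes are not compared, since probes differ in brightness for reasons other than abundance. Slide 3 was dimmer than the others, with a 75th percentile of 73.2 to 117 intensity units against 252 to 390.0, and 41.9 to 48.0% of spots well above background against 61.8 to 67.9%. No array had a saturated spot (0 per array). Precision is limited by how few arrays there are.

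Most of the ATP synthase genes were slightly lower in REST. Of the 10 genes, 7 were lower in REST past the threshold (ATP5F1A, ATP5F1B, ATP5F1D, ATP5F1E, ATP5MC1, ATP5MC3 and ATP5PO), 0 were higher, and 3 did not pass (ATP5F1C, ATP5PB and ATP5MC2). Among all tested genes 9.27% were lower past the same threshold. The changes ran from -0.56 for ATP5MC1 to 0.04 for ATP5MC2, with a median of -0.26, where the median of all tested genes was -0.009. By probe, 27 of 30 were lower and 19 passed, all downward, against 8.78% of all tested probes (16% in either direction). In 6 of the 10 genes REST was below CONT within all 6 cows, which held for 10.8% of tested genes, and in 5 every REST array was below every CONT array, which held for 1.66%.

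**Figure D1:**
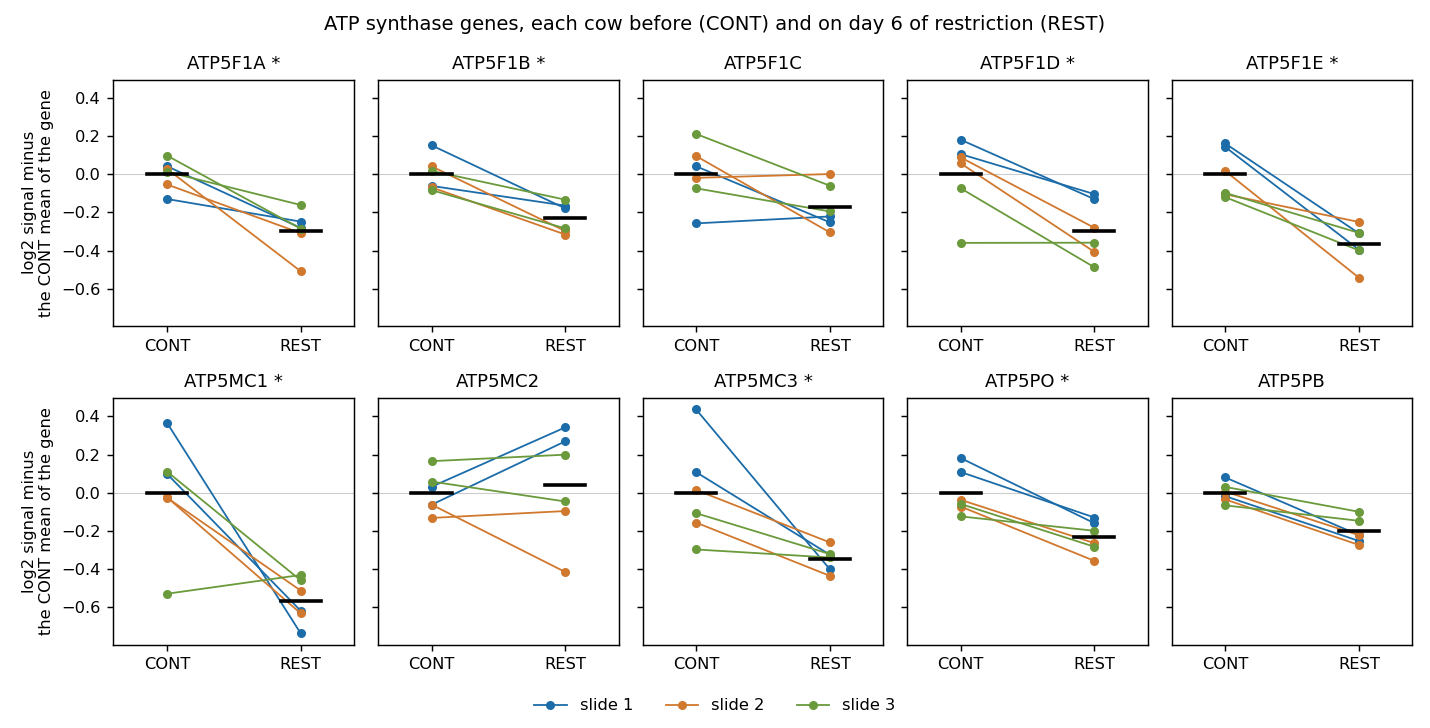
Normalized log2 signal of the 10 ATP synthase genes on each array, drawn relative to the CONT mean of the gene; each line joins the CONT and REST arrays of 1 cow, coloured by slide, black bars are group means, and an asterisk marks the 7 genes past the threshold. Most lines fall from CONT to REST, whereas those of ATP5MC2 run both ways, from -0.35 in cow 3 to 0.33 in cow 2.

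The number of calls changed with the cows included, the pairing and the processing. Without the cow as a block, 3 genes passed (ATP5F1A, ATP5F1E and ATP5MC1, against 2.81% of tested genes), as did 8 probes (against 2.73%), and 0 genes were higher (against 1.6%). Leaving out cow 1, cow 2 or cow 4 left 0 of the 10 genes past the threshold, leaving out cow 3 left 2, cow 5 left 4 and cow 6 left 5, and without both cows of the dim slide 3 there were 4. Over the whole array 4.19, 3.02, 6.30, 3.47, 9.23 and 7.99% of tested probes were lower past the threshold without cow 1, 2, 3, 4, 5 and 6, and 9.13% without slide 3, against 8.78% with all cows. With all cows and the pairing kept, 1 gene passed after normexp background correction (8.72% of probes lower), where the median change was -0.13. None passed when dim probes were also tested (0.534% of probes lower), where the median change was -0.26 as before. With a cow left out, 7 or 8 of the genes were under an unadjusted p of 0.05, as were 20.5 to 28.4% of all tested genes, and the median change stayed between -0.29 and -0.23. Within slides the median change was -0.26 on slide 1, -0.28 on slide 2 and -0.19 on slide 3, with 9, 10 and 10 of the genes lower.

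These are changes relative to the rest of the array. Before scaling, the 75th percentile was higher in REST in 6 of 6 cows, by 0.30 ± 0.10 (SD, n = 6) on the log2 scale. Without scaling the median change of all tested genes was 0.29 and that of the 10 genes 0.034, of which 4 were then lower. The scaling subtracts 1 value per array, so it moves all genes alike and leaves the distance of the genes from the others as it was. The 6 spike-in controls that were well above background on all arrays differed by 0.04 ± 0.47 (SD, n = 6) between the arrays of a cow, from -0.77 in cow 1 to 0.61 in cow 5. In tissue, fewer cells of a type and less RNA per cell cannot be told apart.

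ATP5F1A and ATP5F1B form the hexamer of the head, in which the β subunit makes ATP and the α subunit binds nucleotide without catalysis. ATP5F1A lay between 6.14 and 6.37 in CONT (median 6.29) and between 5.76 and 6.11 in REST (median 5.99). The groups did not overlap, and the change was -0.30 ± 0.083 (SE, 6 cows; limma, adjusted p = 0.0606), a signal 18.7% lower. All 6 of its probes passed, with changes from -0.32 to -0.29. The largest fall within a cow was -0.54 in cow 4 and the smallest -0.12 in cow 2.

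ATP5F1B lay between 6.24 and 6.48 in CONT (median 6.30) and between 6.01 and 6.19 in REST (median 6.09), again without overlap. It fell by 0.23 ± 0.074 (SE, 6 cows; limma, adjusted p = 0.0916), or 14.7%, and by 0.10 to 0.34 within cows. Of its 5 probes, 3 passed and all were lower, from -0.29 to -0.19, the other two with adjusted p-values of 0.210 and 0.259. By their brightest probes the α and β genes therefore moved in the same direction in each of the 6 cows. Another ATP5F1B probe was lower in 5 of 6 cows, with 0.04 in cow 4. Counted by probe, the groups were without overlap in 4 of 6 for ATP5F1A and 2 of 5 for ATP5F1B.

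In the central stalk, ATP5F1E, the small ε subunit at the foot of the shaft, lay between 6.11 and 6.39 in CONT (median 6.19) and between 5.69 and 5.98 in REST (median 5.88). No REST array reached the lowest CONT array for either of its 2 probes, and both passed. The change was -0.37 ± 0.088 (SE, 6 cows; limma, adjusted p = 0.0412), a signal 22.5% lower, with falls of 0.15 in cow 3 to 0.56 in cow 4.

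ATP5F1D, the δ subunit beside it, lay between 2.69 and 3.23 in CONT (median 3.12) and between 2.56 and 2.95 in REST (median 2.73). On this brightest probe the groups overlapped through cow 6, whose CONT array was the lowest of its group and whose change was 0.00096. In the other cows the change was between -0.46 and -0.21. On the second probe the groups did not overlap, and the change in cow 6 was -0.12. Both probes passed, at -0.29 and -0.28, and the brightest gave an adjusted p of 0.0696 in limma, with a signal 18.5% lower.

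ATP5F1C, the γ subunit that forms the shaft itself, did not pass with any of its 4 probes. It lay between 4.59 and 5.06 in CONT (median 4.86) and between 4.54 and 4.85 in REST (median 4.64), so that the groups overlapped over most of their range. The change was -0.17 (95% interval -0.37 to 0.03; limma, adjusted p = 0.241). Cows 2 and 4 had changes of 0.036 and 0.020, the other cows of -0.40 to -0.12, and the other probes gave -0.16, -0.13 and -0.05. The interval includes both 0 and the median change of the 10 genes.

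**Figure D2:**
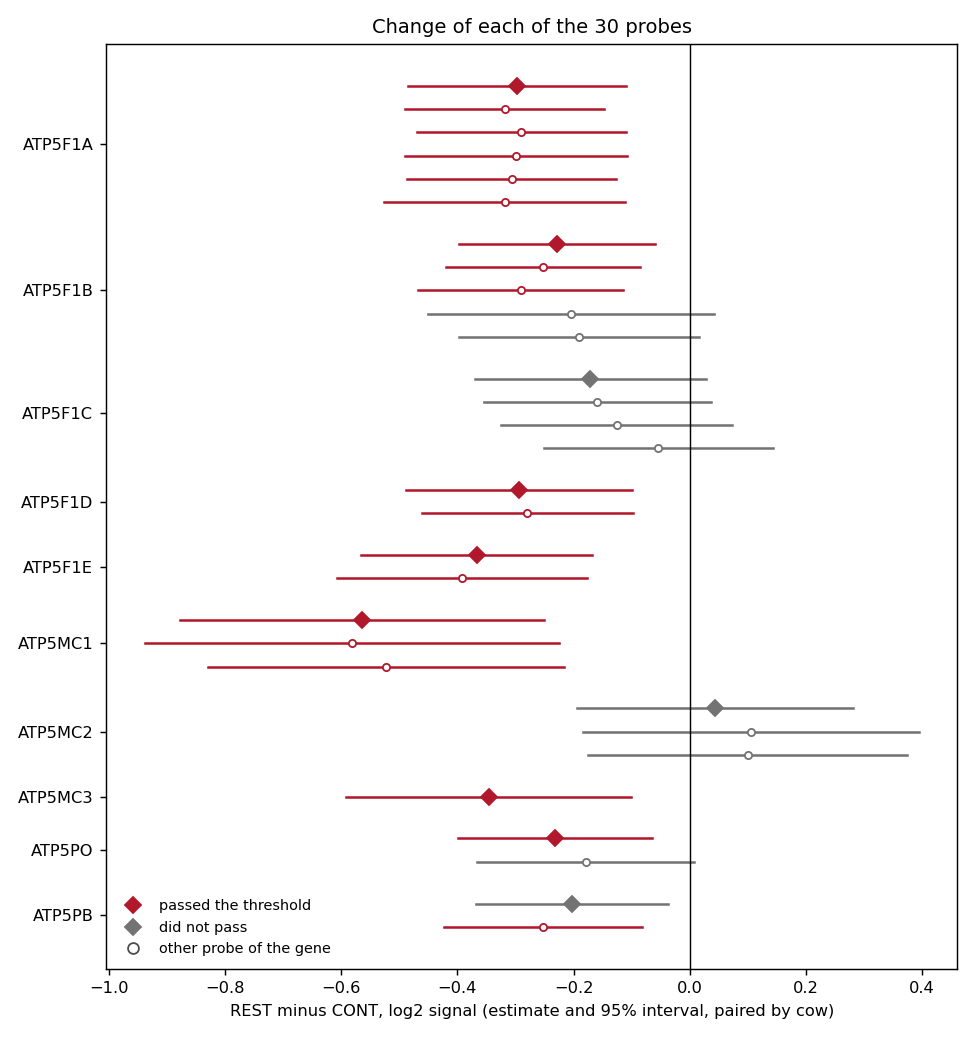
Change from CONT to REST (log2 signal, paired by cow) of each of the 30 probes with its 95% interval, grouped by gene; diamonds are the brightest probe of a gene, open circles its other probes, and red marks the 19 probes past the threshold. All 6 probes of ATP5F1A and all 3 of ATP5MC1 passed, while the 3 probes of ATP5MC2 lie above 0 and the 4 of ATP5F1C below it, with intervals that include 0.

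The c subunit is encoded by separate genes whose products differ in the import sequence and give the same mature protein. Of these, ATP5MC1 had the largest change of all 10 genes. It lay between 3.47 and 4.37 in CONT (median 4.04) and between 3.27 and 3.57 in REST (median 3.44). Its CONT arrays were spread widely (SD 0.30, n = 6) and its REST arrays narrowly (SD 0.12, n = 6), and the groups overlapped because the CONT array of cow 5 was as low as REST.

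The change of ATP5MC1 was -0.56 ± 0.14 (SE, 6 cows; limma, adjusted p = 0.0431), a signal 32.4% lower. Within cows 1 to 6 it was -1.10, -0.72, -0.49, -0.61, 0.10 and -0.57. Cow 5 thus went against the other cows, and without it the change was -0.70, whereas without cow 1 it was -0.46. All 3 probes passed, between -0.58 and -0.52. It was also the gene with the lowest adjusted p without the block, at 0.0492, but it did not pass without moderation of the variances (adjusted p = 0.125).

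ATP5MC3, measured by a single probe, lay between 4.51 and 5.25 in CONT (median 4.77) and between 4.38 and 4.55 in REST (median 4.48). It shared with ATP5MC1 the wide CONT group and the narrow REST group. The change was -0.35 ± 0.11 (SE, 6 cows; limma, adjusted p = 0.0819), a signal 21.3% lower, and in cows 1 to 6 it was -0.84, -0.43, -0.27, -0.28, -0.04 and -0.21. It was below 0 in all 6 cows, most in cow 1 and least in cow 5, the cows that also stood at the ends for ATP5MC1.

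ATP5MC2 did not pass, and it was the only one of the 10 genes with a change above 0. It lay between 6.03 and 6.33 in CONT (median 6.15) and between 5.75 and 6.51 in REST (median 6.24), and here the REST group was the wider one. Within cows 1 to 6 the change was 0.31, 0.33, -0.35, 0.04, -0.10 and 0.03, with a mean of 0.043 (95% interval -0.20 to 0.28; limma, adjusted p = 0.823). Both cows of slide 1 were higher in REST, those of slide 2 went apart, and those of slide 3 lay near 0. Without cow 1 or cow 2 the estimate was -0.011 or -0.015. Its other probes gave 0.10 each.

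**Figure D3:**
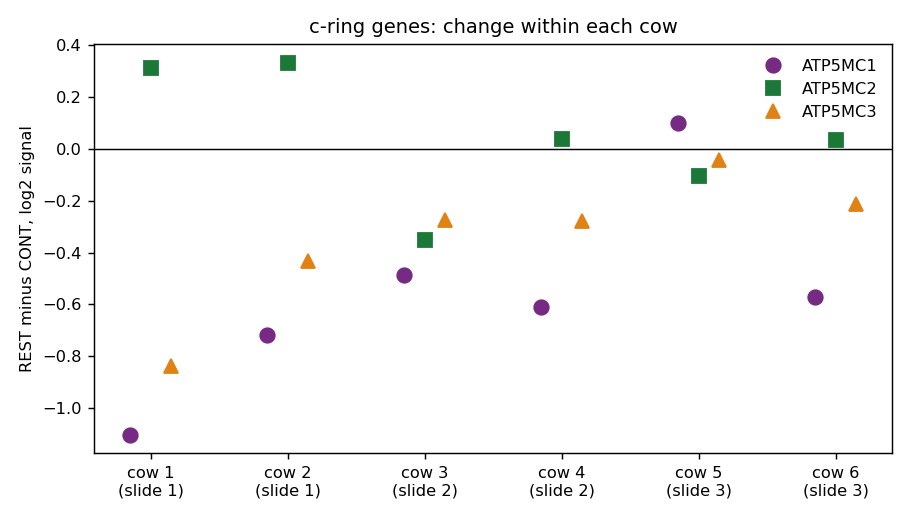
Change from CONT to REST (log2 signal) of the 3 c-ring genes within each of the 6 cows, with the slide of each cow. ATP5MC1 lies below ATP5MC2 in 5 of 6 cows and below ATP5MC3 in the same number, with cow 5 the exception for both, and ATP5MC2 runs from -0.35 in cow 3 to 0.33 in cow 2.

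Whether the c-ring genes changed unequally was tested directly on the differences within cows, in 3 pairs, where the smallest p that 6 cows allow is 0.03125. ATP5MC1 changed by -0.61 ± 0.59 (SD, n = 6) more than ATP5MC2, with a negative difference in 5 of 6 cows (exact sign-flip test, two-sided, p = 0.0938, adjusted p = 0.125). Against ATP5MC3 the difference of ATP5MC1 was -0.22 ± 0.18 (SD, n = 6), also negative in 5 of 6 cows (exact p = 0.0625, adjusted p = 0.125). ATP5MC2 minus ATP5MC3 gave 0.39 ± 0.48 (SD, n = 6; exact p = 0.125, adjusted p = 0.125). None of the pairs passed at 0.1, so that a call in ATP5MC1 beside none in ATP5MC2 was not shown to be a difference between them. After normexp background correction both differences of ATP5MC1 did pass (-0.62 and -0.22, adjusted exact p = 0.0938). Without cow 5 the first and second differences were -0.77 and -0.29, each with an adjusted exact p of 0.0938, whereas the adjusted exact p of both was 0.125 without cow 3 and 0.25 without cow 1, 2, 4 or 6. With 5 cows the smallest exact p is 0.0625, so these values say little about stability.

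In the peripheral stalk both genes were lower in every cow. ATP5PO, the OSCP subunit that ties the stalk to the top of the head, lay between 3.60 and 3.91 in CONT (median 3.68) and between 3.37 and 3.60 in REST (median 3.50), just without overlap. The change was -0.23 ± 0.074 (SE, 6 cows; limma, adjusted p = 0.0864), a signal 14.8% lower, and it fell by 0.08 to 0.34 within cows. Its second probe, at -0.18, did not pass (limma, adjusted p = 0.197).

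ATP5PB, the b subunit that spans the length of the stalk, lay between 4.09 and 4.24 in CONT (median 4.16) and between 3.89 and 4.06 in REST (median 3.94). The groups did not overlap and the change was below 0 in all 6 cows, yet at -0.20 ± 0.073 (SE, 6 cows) it did not pass (limma, adjusted p = 0.116). The second probe of the gene, at -0.25, did (limma, adjusted p = 0.0739). The count of genes past the threshold would thus be 8 with that probe in place of the brightest one.

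Most pairs of the genes varied together across arrays. Over the 12 arrays, which include the difference between the groups and share slides and cows, the 36 pairs without ATP5MC2 had Pearson correlations from 0.16 to 0.91, the highest for ATP5MC1 with ATP5MC3. The 9 pairs with ATP5MC2 ran from -0.18 to 0.12, and 6 of them were below 0. ATP5F1C was also weakly correlated with several genes, at 0.16 with ATP5F1D, 0.19 with ATP5F1E and 0.21 with ATP5MC3 and ATP5PO, against 0.61 with ATP5PB. Cow by cow the median change of the 10 genes was -0.33, -0.24, -0.31, -0.28, -0.19 and -0.15 in cows 1 to 6, and the gene with the lowest change was ATP5MC1 in every cow but cow 5, where it was ATP5F1D.

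The other genes of the enzyme were mostly lower as well. Of 16 listed, 13 were on the array and 11 could be tested, of which 10 were lower, 7 passed, all downward (against 9.27% of all tested genes), and the median change was -0.35. ATP5MK, a small membrane subunit, changed by -0.45, ATP5ME, the e subunit, by -0.43, ATP5PF, the F6 subunit of the peripheral stalk, by -0.42, and ATP5MF, the f subunit, by -0.42, each in 6 of 6 cows (limma, adjusted p = 0.0307, 0.0254, 0.0206 and 0.0321). The inhibitor ATP5IF1, which blocks hydrolysis of ATP by the enzyme, fell with them by 0.26 (limma, adjusted p = 0.0646). A positive change stood in DMAC2L alone, at 0.28 (limma, adjusted p = 0.149). Without the block 3 of the 11 passed (against 2.81% of tested genes), and without cow 2 likewise 3 (against 3.02% of tested probes).

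**Figure D4:**
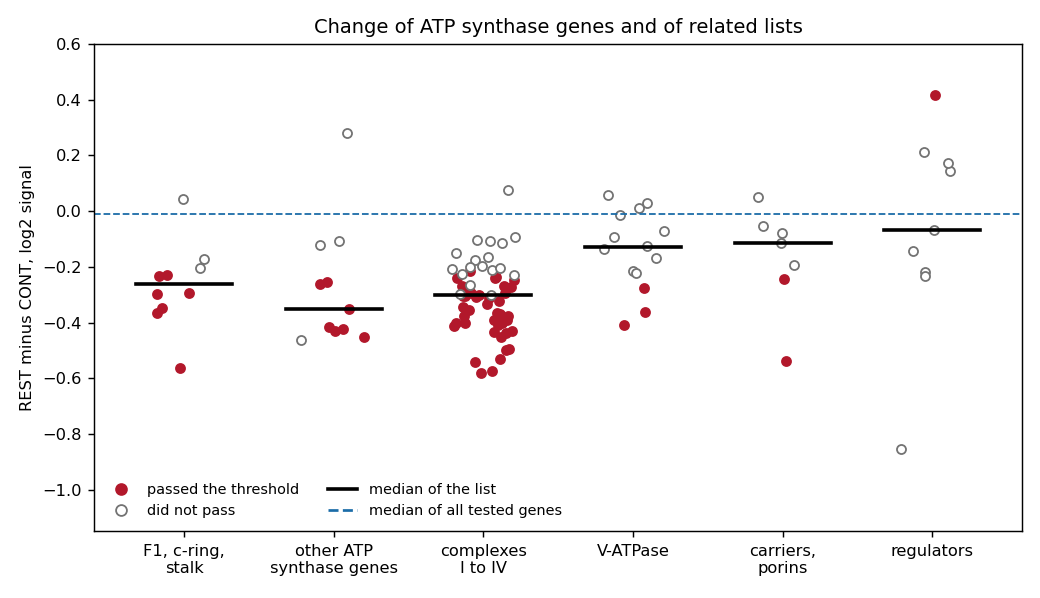
Change from CONT to REST (log2 signal) of each tested gene of the 10 ATP synthase genes (F1, c-ring and stalk) and of 5 related lists; red points passed the threshold, open points did not, black bars are list medians and the dashed line is the median of all 7932 tested genes, -0.009. The median is -0.26 for the 10 genes, -0.35 for the other ATP synthase genes, -0.30 for complexes I to IV and -0.13 for the V-ATPase.

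The related lists are given side by side, and differences between lists were not tested. Of 59 tested genes of complexes I to IV, 58 were lower and 41 passed downward (17 without the block), where 9.27% of all tested genes did (2.81% without the block), with a median of -0.30 and the largest falls in COX7A2 and SDHA (-0.58 each). The V-ATPase, a proton pump of acidic vesicles built on the same rotary plan, had 3 of 14 genes past the threshold, all lower and to be read against the same 9.27%, and a median of -0.13, with ATP6V1F (-0.41) and ATP6V1E1 (-0.36) the lowest of those. Among carriers and porins, which move ADP, ATP and phosphate, 2 of 7 passed downward, the ADP/ATP carriers SLC25A5 (-0.54) and SLC25A4 (-0.24), and the median was -0.11. Without the block 2 of the 14 V-ATPase genes and 1 of the 7 carriers and porins passed, SLC25A4 not among them (adjusted p = 0.330). Of 9 tested regulators of mitochondrial genes 0 were lower past the threshold by limma. An unadjusted p under 0.05 in either direction stood in 4 of them, against 27.7% of all tested genes. ESRRA, an orphan nuclear receptor, rose by 0.42 (limma, adjusted p = 0.0497, without the block 0.257, with 6.95% of tested genes higher). PPARGC1A, a coactivator of mitochondrial biogenesis, had the largest change of that list, -0.85, and did not pass (adjusted p = 0.108).

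**Figure D5:**
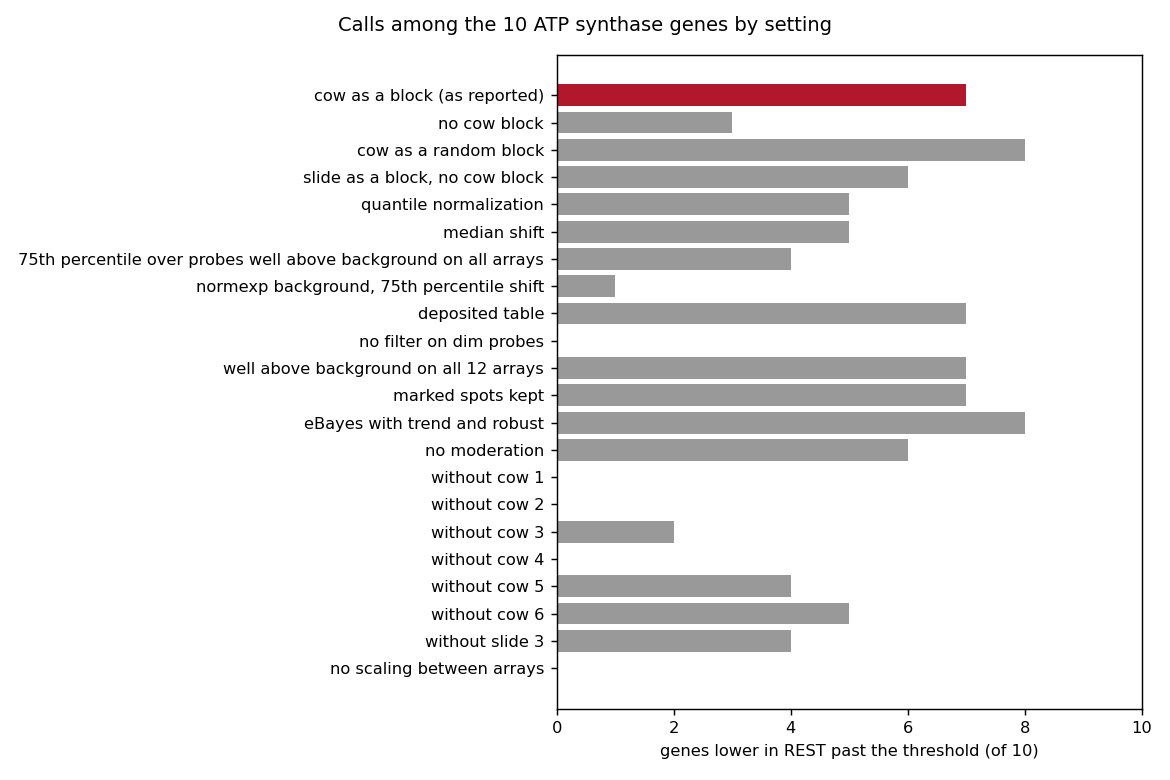
Number of the 10 ATP synthase genes lower in REST past the threshold, as reported (red, 7) and under each alternative processing or selection of arrays (grey). The count is 8 with the cow as a random block or with trended robust moderation, 3 without a cow block and 0 without cow 1, cow 2 or cow 4, without the filter on dim probes, or without scaling. Of all tested probes 8.78% were lower past the threshold as reported, 9.88% with the random block and 10.1% with trended robust moderation.

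Markers of the cells in a biopsy moved in both directions beside these changes, and their part in the result was not tested. Of all tested genes 9.27% were lower and 6.95% higher past the threshold, and without the block VWF alone of the markers named below as past it still passed. Milk secretion genes, which mark secretory mammary tissue, were well above background (mean normalized signal of the 5 tested 9.72 to 10.08 in CONT and 9.41 to 9.79 in REST), and all 5 were lower, with a median of -0.20 and CSN1S1 and CSN3, casein genes, past the threshold. Of 6 tested luminal epithelial markers, with a mean of 3.28 to 3.86 in CONT and 3.52 to 4.03 in REST, the keratins KRT8 (0.72) and KRT18 (0.52) rose and 0 fell past the threshold, with CLDN4 (-0.17) and ELF5 (-0.053) below 0. Myoepithelial markers (7 tested, 2.68 to 3.46 in CONT and 2.53 to 3.36 in REST) were lower in 4 and higher in 3, of which CNN1 (-0.53) and ACTA2 (-0.38) passed, while KRT5 (0.25), OXTR (0.17) and MYH11 (0.10) were above 0 and did not. Of 5 endothelial markers VWF rose (0.54) and KDR was at -0.15 (list median 0.13), of 5 leukocyte markers CD3E rose (0.35) and PTPRC was at -0.15 (list median -0.077), and of 6 fibroblast markers none passed (median -0.36, with DCN at 0.32 and PDGFRA at 0.18). The mean endothelial signal was 0.17 to 0.76 in CONT and 0.47 to 0.65 in REST, the leukocyte signal 0.47 to 0.63 and 0.47 to 0.94, and the fibroblast signal 1.90 to 2.81 and 1.41 to 2.90. The adipocyte markers PLIN1, LEP and CIDEC were too dim to be tested, as were CDH1 of the luminal epithelial list, ITGAM of the leukocyte list, HBB and ALAS2 of the erythrocyte list and MB, MYH7 and TNNT3 of skeletal muscle. Of the last list CKM fell (-0.36) and ACTA1 was at 0.022, and of the erythrocyte list HBA was at -0.33 (limma, adjusted p = 0.108).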

How the data were processed

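Per the file headers, the authors extracted the arrays with Agilent Feature Extraction (11.0.1.1) on a UMD_3.1 grid and deposited processed signal intensity, background-subtracted and not scaled between arrays. The deposited table held the same values. Here log2 signals were shifted by the 75th percentile over 43803 non-control spots, marked spots (1 to 13 per array) were dropped, and repeat spots averaged. Symbols were attached through RefSeq identifiers (27131 of 43653 probes). The fit was limma 3.58.1 in R 4.3.3, with cow as a fixed block and two-sided tests. The labels name the animal, and the deviations of a cow's arrays from the group means correlated (r 0.36 to 0.57, against -0.33 to 0.13 between cows). The fit was tested on simulated data. Python 3.11.15, pandas 2.3.3 and matplotlib 3.10.9 were also used.

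Genes, lists and tests were chosen with earlier results of these data known. All 10 genes are named. Of the other ATP synthase genes, the 4 largest called changes and any rise are named, and of related lists at most 2 called genes. Of the genes outside the respiratory and ATP synthase lists, the 5 most alike are named. ATP5IF1, PPARGC1A and the marker genes in the text were picked out after their values were seen. The files used here hold no mean spot intensity, so the normexp alternative took median spot and background intensities. Sequences and genome positions are not reported here.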

Additional observations from a re-analysis of the deposited data

How the results depend on the processing

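Both the counts of calls and, under normexp and without scaling, the estimates depended on the processing. Leaving the cow out as a block gave 837 probes past the threshold instead of 3105, 3 of the 10 genes, 8 of their probes and 3 other ATP synthase genes, and the slide as a block in its place gave 1899 probes. A percentile over probes well above background on all arrays gave 4 genes, where 7.27% of all tested probes were lower past the threshold (1411 lower, 1607 higher). With normexp background correction 3677 probes passed (1692 lower, 1985 higher), with 1 gene (ATP5MC1), 4 of the genes' probes, 1 of them higher, and 3 other genes. The median change was -0.13, with ATP5F1A at -0.16, ATP5F1B at -0.078, ATP5F1C at -0.029, ATP5PO at -0.089 and ATP5PB at -0.055. Under it the 75th percentile differed by 0.16 between periods instead of 0.30. The first and second c-ring differences were then -0.62 and -0.22, both with an adjusted exact p of 0.0938, which passes. Without the filter on dim probes, which raised the probes tested to 43653, 388 probes, 0 genes, 0 of their probes and 0 other genes passed in limma. In that fit 8 of the 10 genes had an unadjusted p under 0.05, against 21.99% of the 7932 genes. Without moderation 1853 probes and 6 genes passed, ATP5MC1 (adjusted p = 0.125) and ATP5MC3 (0.151) no longer and ATP5PB (0.0575) in addition. Of all tested probes 5.73% were then lower past the threshold. Without slide 3, chosen after seeing the data, 4 genes and 12 probes passed, where 9.13% of all tested probes were lower past the threshold.

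Without scaling between arrays, also chosen after seeing the data, 11729 probes passed, 11329 of them higher, with 1 gene (ATP5MC2, 0.34, higher), 4 probes and 2 other genes, all higher. The median change of the 10 genes was then 0.034, with ATP5F1B at 0.069, ATP5F1C at 0.13, ATP5F1D at 0.0029, ATP5PO at 0.066 and ATP5PB at 0.095. With a cow left out, the probes past the threshold ranged from 1044 to 3292, the genes from 0 to 5, their probes from 0 to 16, other ATP synthase genes from 3 to 6, the median change from -0.29 to -0.23, and the c-ring differences from -0.77 to -0.45, from -0.29 to -0.19 and from 0.24 to 0.48. ATP5MC2 changed sign without cow 1 (-0.011) and cow 2 (-0.015) and reached 0.12 without cow 3. Apart from the unscaled values, the 9 lower genes stayed lower in all alternatives. The causes of these shifts were not tested.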

Other observations

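Genes like the 10 ATP synthase genes were sought among 7784 genes outside the respiratory and ATP synthase lists. The measure was the Pearson correlation of their signal with the mean of the 10 over the 12 arrays. Genes of complexes I to IV and the other ATP synthase genes were thus not ranked, and may be as much alike. These arrays include the difference between CONT and REST and share cows and slides. ALDOC, an aldolase of glycolysis, came first (r = 0.92), and its change was -1.12. MRPL24, a protein of the mitochondrial ribosome, followed (r = 0.92, change -0.44), then SUCLG1, a subunit of succinyl-CoA ligase in the citric acid cycle (r = 0.92, change -0.34), and PCCB, a subunit of propionyl-CoA carboxylase (r = 0.91, change -0.76). LOC282340 was next (r = 0.91) with a change of -2.28. Over the within-cow changes of the 6 cows alone the correlations of these genes with the 10 were, in the same order, 0.62, 0.23, 0.57, 0.37 and -0.39, too few points to read an order from.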
